A study of Mus musculus with 22 samples.

Results

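The integrated stress response and the amino acid genes it controls were followed through 22 RNA-seq libraries of mouse embryonic stem cells (ESCs). The group holds 32 genes of 44749 entries in the count table, taken by gene symbol from a fixed list: regulators of the response, enzymes of serine, proline and asparagine synthesis, mitochondrial one-carbon enzymes, amino acid transporters and cytosolic tRNA synthetases. The list was drawn up with earlier results of these data known. Its counts beside the shares of all entries are therefore a description and not independent support. All 32 were present, and all 32 passed the filter on low counts in each comparison. In a first set of cells, Ythdc1, which binds m6A-modified RNA in the nucleus, had been targeted. There 7 of the 11 stress regulators and effectors rose and 2 fell. Of the synthesis enzymes 6 of 6 fell, and of the tRNA synthetases 4 of 6 fell and 1 rose. Of all tested entries in that set, 23.7% were higher and 21.4% lower. In a second set, pooled over Dux genotypes, 4 of these 11 rose and 2 fell, and 5 of 6 synthesis enzymes and 5 of 6 synthetases fell. The shares of all tested entries there were 20.2% higher and 16.2% lower.

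In the integrated stress response, kinases that sense amino acid shortage, unfolded protein, haem shortage or viral RNA phosphorylate the translation factor eIF2, which lowers general protein synthesis and favours translation of ATF4. ATF4 then binds C/EBP-ATF response elements together with C/EBP partners and turns on genes for amino acid synthesis, import and tRNA charging. Under lasting stress it also turns on Ddit3 (CHOP), Trib3, Chac1 and Ppp1r15a, whose product helps to remove the phosphate from eIF2. ATF4 is regulated mainly in translation, so its mRNA is a partial readout of its activity.

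The cells were male ESCs kept without feeders in serum and LIF, in a medium that held glutamine and nonessential amino acids, per the labels' protocols. 8 libraries came from Ythdc1_cKO cells (conditional knockout) of 2 ESC lines, 4 treated with 4OHT and 4 with DMSO as the control. They are called the Ythdc1 set, and since the table's columns do not carry the line, they were compared as 4 against 4. 4 libraries, the Mettl3 set, were labelled Mettl3.KO or Mettl3.WT, 2 of each. Mettl3 is the catalytic subunit of the m6A writer. 10 libraries, the Dux set, were Ythdc1-cKO cells labelled Dux-Het or Dux-KO under DMSO or 4OHT, 2 of each, with a further pair that carries no Dux label. Dux activates genes that mark the two-cell stage of the embryo. 4OHT (4-hydroxytamoxifen) is commonly used to switch on Cre fused to a modified oestrogen receptor, and the labels used here do not name the driver. Every 4OHT library comes from cKO cells, so the effect of the ligand and that of the allele cannot be told apart. The labels do not say which part of Ythdc1 or Mettl3 was removed, whether a line is 1 clone, or whether replicates were grown separately. The p-values therefore rest on the spread among these libraries, which may be technical.

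Total counts ran from 24.96 to 54.14 M per library. Ythdc1 counts over the whole gene were 70.8 to 80.2 CPM (counts scaled to library size, with TMM factors over all 22 libraries) under DMSO and 49.0 to 62.8 CPM under 4OHT in the Ythdc1 set (log2 fold change -0.41, adjusted p = 0.00064), and they did not pass the test in the Dux set. Mettl3 counts were 29.0 and 29.9 CPM in the libraries labelled WT, and 14.5 and 28.4 CPM in the libraries labelled KO. Counts over a whole gene do not check the loss of an exon, and the groups are named as labelled. In the Ythdc1 set, DMSO replicate 1 stood apart from the other DMSO libraries (a chi-square over its degrees of freedom of 30.97 to 37.05 in pairs with it, and 8.44 to 10.82 in pairs without it). The 10 markers of undifferentiated ESCs were detected in every library, and their summed level was lower under 4OHT in the Ythdc1 set. It was 1815 to 2022 CPM under DMSO and 1306 to 1550 CPM under 4OHT in the Ythdc1 set, where 5 of 10 were lower, and 5 of 10 were also lower in the pooled Dux set. In the Mettl3 set 3 were higher and 3 lower. The part of these and the following markers in the results was not tested. The 9 markers of two-cell-like cells summed to 5.47 to 19.8 CPM under DMSO and 60.6 to 119.8 CPM under 4OHT in the Ythdc1 set, and to 1.77 to 1.78 and 72.8 to 76.2 CPM in the libraries labelled Mettl3 WT and KO. They summed to 6.32 to 6.56 and 44.3 to 55.7 CPM in Dux-Het cells, and to 1.38 to 1.52 and 1.5 to 1.83 CPM in Dux-KO cells, where 6 and 5 of the 9 were at 0 in both libraries. The 8 primitive endoderm markers summed to 159 to 215 CPM under DMSO and 264 to 409 CPM under 4OHT in the Ythdc1 set. Most of each sum was Col4a1 (77.9 to 107 and 157 to 276 CPM) and Lama1 (54.4 to 78.0 and 73.8 to 99.2 CPM). In that set 6 of the 8 were called higher, against 23.7% of all tested entries. The sums were 88.1 to 93.5 and 128 to 158 CPM in the libraries labelled Mettl3 WT and KO. The 8 fibroblast markers summed to 11.7 to 75.0 CPM, with Lum at 0 in 16 and Dcn in 3 libraries. By group the sums were 18.99 to 24.1 CPM under DMSO and 11.7 to 19.3 CPM under 4OHT in the Ythdc1 set. They were 48.3 to 53.6 and 19.96 to 37.6 CPM in the libraries labelled Mettl3 WT and KO. In Dux-KO cells they were 58.2 to 75.0 CPM under DMSO and 33.6 to 37.6 CPM under 4OHT. In Dux-Het cells these ranges overlapped, at 19.6 to 67.2 and 30.1 to 39.2 CPM. Of 6 tested, 2 were called lower in the Ythdc1 set, 2 in the Mettl3 set and 1 in the pooled Dux set. In bulk RNA, fewer cells of a type and less RNA per cell cannot be told apart.

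The response element that ATF4 binds is short and was searched as TGATGNAA on both strands (reverse complement TTNCATCA) in RefSeq promoter windows on GRCm38.p6, which run from 250 bases before to 50 after each transcription start. 25 of the 32 genes had a window, and Aldh1l2, Cars, Eif4ebp1, Nars, Slc7a3, Slc7a5 and Wars had none. 9 of the 25 held a match (36%), against 4.511% of 27025 genes with a window. The members were listed in part as ATF4 targets, so this share is not independent of how the list was chosen. The stretches below, from 8 of the 9, are shown because they mark members that carry this element close to their start, and because the RNA of these members moved in both directions. Each is written 5′ to 3′ on the gene's strand, with the matched letters in capitals. A stretch that lies in an annotated exon was kept to 30 bases.
Atf3, chr1:191183414-191183465, minus strand: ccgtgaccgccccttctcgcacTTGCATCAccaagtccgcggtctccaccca
Chac1, chr2:119351027-119351078, plus strand: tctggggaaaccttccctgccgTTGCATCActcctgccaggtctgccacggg
Trib3, chr2:152344028-152344057, minus strand: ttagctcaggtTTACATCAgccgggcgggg
Nupr1, chr7:126625562-126625591, minus strand: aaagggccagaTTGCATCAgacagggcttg
Asns, chr6:7693214-7693243, minus strand: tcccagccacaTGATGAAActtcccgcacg
Pycr1, chr11:120643822-120643873, minus strand: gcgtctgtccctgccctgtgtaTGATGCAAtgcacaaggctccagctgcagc
Slc7a11, chr3:50443631-50443701, minus strand: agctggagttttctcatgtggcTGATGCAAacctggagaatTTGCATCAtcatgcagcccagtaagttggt
Gars, chr6:55037949-55038000, plus strand: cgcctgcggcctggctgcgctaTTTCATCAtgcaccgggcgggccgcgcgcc
Slc7a11 held 2 matches, at 66 and 47 bases before its start. The only match of Trib3 lay 15 bases after its start. In the Ythdc1 set, 3 of the 9 genes with a match rose (Atf3, Chac1, Trib3), 5 fell (Nupr1, Asns, Pycr1, Aars, Gars) and Slc7a11 did not pass the test, against 23.7% of all tested entries higher and 21.4% lower. With 9 genes these counts say nothing particular about the element. The cAMP response element TGACGTCA, which reads the same on both strands and shares no full match with the other motif, was found in 1 of the 25 windows, that of Ppp1r15a, against 2.031% of all genes. A match is a description of letters and not of binding.

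Levels between genes were compared in CPM per kb of exon length in the Ythdc1 set under DMSO. Gars, the glycyl-tRNA synthetase, was highest at 107 CPM per kb, followed by Asns, the asparagine synthetase, at 94.5 and Slc7a5, a transporter of large neutral amino acids, at 53.3. Atf4 ranked 7 of 32 at 41.9 CPM per kb. The stress-induced regulators sat near the bottom, with Ddit3 at 2.99, Trib3 at 2.57, Atf3 at 2.08 and Chac1 at 1.38 CPM per kb. Slc7a11, the cystine importer, was lowest at 0.137 CPM per kb. Neighbours in this order were often within each other's spread: Psat1 was at 220 ± 37.8 CPM and Slc7a5 at 198 ± 33.6 CPM before division by length (SD, n = 4).

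Under 4OHT in the Ythdc1 set, 25 of the 32 genes changed, 9 higher and 16 lower, at an adjusted p below 0.05 over all entries. Over all 24385 tested entries 45.1% were called, 23.7% higher and 21.4% lower. The median log2 fold change was -0.30 for the 32 genes and 0.02 for all entries. By role, 4 of 7 transcription factors rose and 2 fell, 3 of 4 effectors rose, 6 of 6 amino acid synthesis enzymes fell, 2 of 4 one-carbon enzymes fell and 1 rose, 2 of 5 transporters fell, and 4 of 6 tRNA synthetases fell and 1 rose. Of the 25 calls, 22 remained whichever of the 8 libraries was left out; the others were Cebpg, Nupr1 and Slc7a3.

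**Figure D1:**
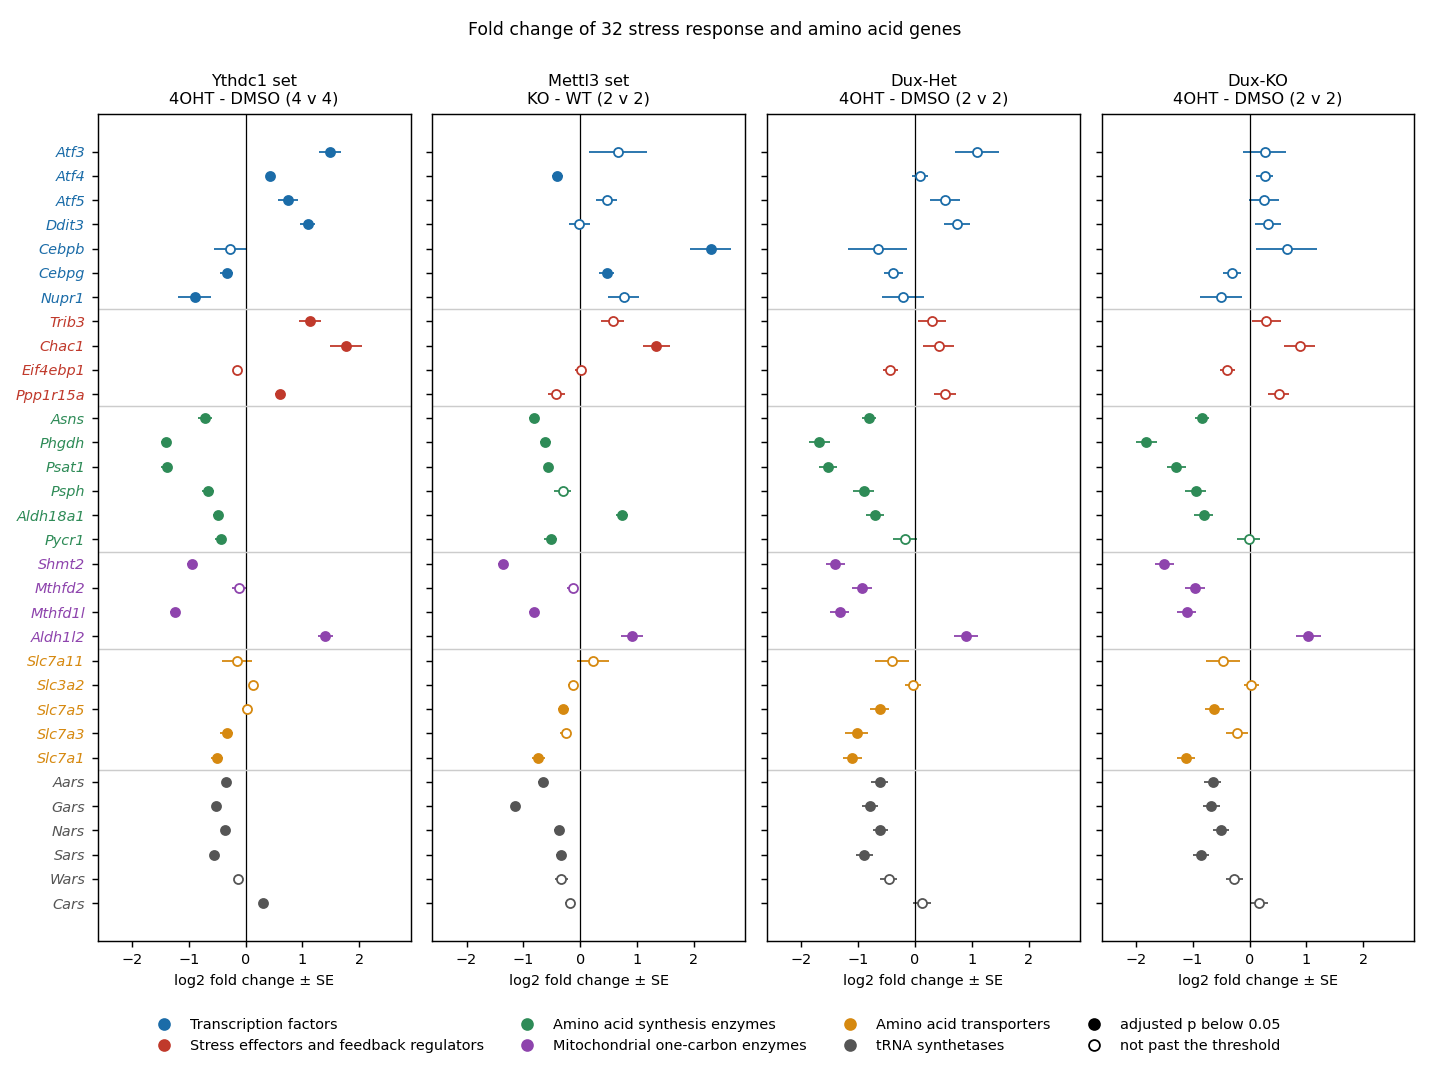
Log2 fold change (points) ± SE (bars) of the 32 genes, grouped by role, for 4OHT against DMSO in the Ythdc1 set, labelled Mettl3 KO against WT, and 4OHT against DMSO in Dux-Het and Dux-KO cells; filled points passed an adjusted p of 0.05. The synthesis enzymes lie left of 0 in most panels, while Aldh1l2 lies right of 0 in all 4.

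Among the transcription factors, Atf4 stood at 103, 104, 95.6 and 91.7 CPM in DMSO replicates 1 to 4 and at 127, 137, 131 and 131 CPM under 4OHT. Every 4OHT library was above every DMSO library, by a modest step (log2 fold change 0.43 ± 0.06 SE, adjusted p = 9.82e-06). Ddit3, which encodes CHOP, a factor that drives later and often pro-death stress genes, was at 5.57, 5.49, 4.49 and 4.94 CPM under DMSO and at 12.9, 9.71, 9.65 and 10.9 CPM under 4OHT. Its groups did not overlap, and its level about doubled (log2 fold change 1.10 ± 0.13, adjusted p = 4.41e-06). Ddit3 has a second annotated gene model of the same symbol and shares 68 exon bases with Mars on the opposite strand, and the sources used here do not state whether counting used strand. Atf3, an early stress factor of the ATF family, was at 5.88, 5.11, 3.65 and 3.27 CPM under DMSO and at 9.51, 10.8, 12.2 and 17.0 CPM under 4OHT. The lowest 4OHT library was above the highest DMSO library (log2 fold change 1.48 ± 0.19, adjusted p = 1.22e-05).

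Atf5, a relative of Atf4 that is also translated under stress, rose with an overlap between groups, since DMSO replicate 1 (18.8 CPM) was above 4OHT replicate 3 (16.9 CPM), while the other DMSO libraries were at 9.10 to 10.3 CPM (log2 fold change 0.74 ± 0.18). The partners of ATF4 went the other way or did not pass. Cebpg, a C/EBP protein that pairs with ATF4, ran from 13.4 to 16.1 CPM under DMSO and from 9.73 to 13.5 CPM under 4OHT (log2 fold change -0.33 ± 0.12, adjusted p = 0.0274). This call was lost without DMSO replicate 1 or 2, or 4OHT replicate 3 or 4. Nupr1, a small stress-induced chromatin protein, was low throughout, at 1.19 to 3.35 and 0.746 to 1.44 CPM, and was lower under 4OHT (log2 fold change -0.90 ± 0.29, adjusted p = 0.02), a call lost without DMSO replicate 2 or 4OHT replicate 4. Cebpb, another C/EBP factor of the response, lay at 1.06 to 1.92 and 0.784 to 1.37 CPM and did not pass (adjusted p = 0.473).

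The effectors and feedback regulators gave the largest rise. Chac1, an enzyme that breaks down glutathione, was at 4.26, 2.24, 1.23 and 1.32 CPM under DMSO and at 8.50, 6.06, 7.91 and 8.02 CPM under 4OHT. No library of one group reached the other, and DMSO replicate 1 was the highest control (log2 fold change 1.77 ± 0.29, 3.4-fold, adjusted p = 9.48e-05). Trib3, a pseudokinase induced by ATF4 and CHOP that restrains them, was at 8.17, 5.61, 3.28 and 4.81 CPM under DMSO and at 11.5, 12.4, 10.3 and 12.9 CPM under 4OHT (log2 fold change 1.12 ± 0.19, adjusted p = 0.000174). Ppp1r15a (GADD34), the stress-induced subunit of the eIF2 phosphatase, was at 26.6, 26.9, 25.7 and 28.0 CPM under DMSO and at 40.2, 39.7, 35.7 and 44.3 CPM under 4OHT. Its DMSO libraries lay close together, well below the 4OHT libraries (log2 fold change 0.60 ± 0.08, adjusted p = 1.04e-05). Eif4ebp1, which holds back cap-dependent translation, overlapped between groups, at 84.5 to 118 and 82.8 to 91.7 CPM, and did not pass (log2 fold change -0.14, adjusted p = 0.187).

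**Figure D2:**
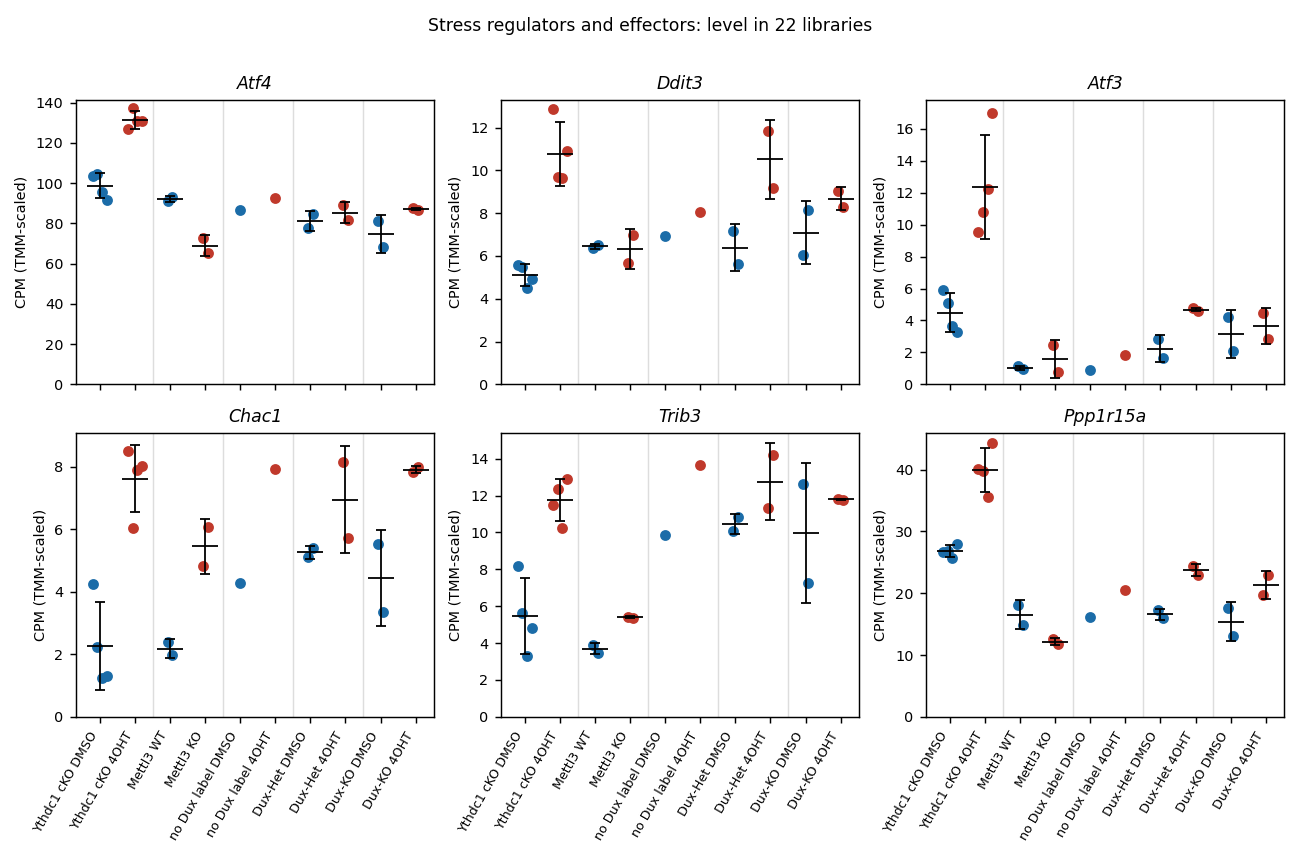
Level in TMM-scaled CPM of 3 transcription factors (Atf4, Ddit3, Atf3) and 3 effectors (Chac1, Trib3, Ppp1r15a) in each of 22 libraries; blue points are DMSO or WT, red points 4OHT or KO, and black marks the mean ± SD of groups with more than 1 library. All 4 4OHT libraries of the Ythdc1 set lie above the 4 DMSO libraries for each of the 6 genes, while Atf4 and Ppp1r15a are lower in both libraries labelled Mettl3 KO than in WT. Atf5, Cebpb, Cebpg, Nupr1 and Eif4ebp1, whose groups overlapped in the Ythdc1 set, are not shown. How large a share of all entries had groups that did not overlap was not computed. The separation of the 6 therefore has no background to be read against.

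All 6 amino acid synthesis enzymes fell, with no overlap between groups for any of them. The share of all entries whose groups did not overlap was not computed. Phgdh (chr3:98313170-98339990), the first enzyme of serine synthesis from glycolysis, was at 109, 101, 83.9 and 93.9 CPM under DMSO and at 37.7, 41.4, 31.9 and 34.1 CPM under 4OHT. The highest 4OHT library had less than the lowest DMSO library by a wide margin (log2 fold change -1.39 ± 0.09, 2.63-fold lower, adjusted p = 5.42e-09). Psat1 (chr19:15904678-15947337), the aminotransferase of the next step, was at 271, 225, 191 and 192 CPM under DMSO and at 88.0, 89.8, 74.9 and 78.2 CPM under 4OHT. Its fall was of the same size (log2 fold change -1.39 ± 0.10, adjusted p = 1.42e-08). Psph, the phosphatase that completes serine, ran from 14.1 to 19.2 CPM under DMSO and from 9.76 to 10.9 CPM under 4OHT (log2 fold change -0.66 ± 0.10). Psph shares 452 exon bases with Cct6a on the opposite strand, which was also lower (log2 fold change -0.52 ± 0.07, adjusted p = 7.98e-06), and without strand their reads there cannot be told apart.

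Asns, which makes asparagine from aspartate and is a standard marker of ATF4 output, was at 237, 208, 273 and 316 CPM under DMSO and at 135, 129, 175 and 183 CPM under 4OHT. Within each treatment, replicates 3 and 4 were above replicates 1 and 2, and the groups did not overlap (log2 fold change -0.72 ± 0.13, adjusted p = 0.000205). The proline enzymes fell less. Aldh18a1, which starts proline synthesis from glutamate, ran from 51.1 to 71.3 CPM under DMSO and from 39.8 to 47.1 CPM under 4OHT (log2 fold change -0.49 ± 0.09), and Pycr1, which completes it in mitochondria, from 25.8 to 29.5 and from 17.0 to 23.5 CPM (log2 fold change -0.44 ± 0.10). So the direction of the asparagine and serine enzymes was opposite to that of Atf4, Ddit3 and Chac1 in the same libraries.

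The mitochondrial one-carbon enzymes, which move the carbon of serine onto folate and release it as formate, split in direction. Shmt2 (chr10:127517123-127522444), which takes a carbon from serine and leaves glycine, was at 124, 113, 120.5 and 106 CPM under DMSO and at 62.0, 69.3, 57 and 49.9 CPM under 4OHT. Its groups were far apart (log2 fold change -0.94 ± 0.08, adjusted p = 2.48e-07). Mthfd1l (chr10:3973118-4167081), which releases formate, was at 97.4, 87.1, 87.9 and 84.7 CPM under DMSO and at 38.7, 42.2, 34.8 and 32.7 CPM under 4OHT (log2 fold change -1.24 ± 0.08, adjusted p = 5.49e-09). Mthfd2, the dehydrogenase between them, was at 49.7, 39.4, 30.9 and 32.9 CPM under DMSO and at 34.5, 39.3, 34.1 and 30.7 CPM under 4OHT. Those ranges overlapped and the difference did not pass (log2 fold change -0.12, 95% interval -0.35 to 0.11, adjusted p = 0.445).

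Aldh1l2 (chr10:83487450-83534140), which oxidises formyl-folate to carbon dioxide and yields NADPH, was the exception among the enzymes. It stood at 4.89, 4.97, 3.63 and 3.97 CPM under DMSO and at 10.5, 10.6, 11.7 and 12.8 CPM under 4OHT, so every 4OHT library had over 2 times the level of every DMSO library (log2 fold change 1.40 ± 0.13, adjusted p = 3.59e-07). It shares 1056 of its 7503 exon bases with D10Wsu102e on the opposite strand, which was far more abundant at 543 to 618 CPM under DMSO and 569 to 694 CPM under 4OHT and did not pass the test (log2 fold change 0.09, adjusted p = 0.284).

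**Figure D3:**
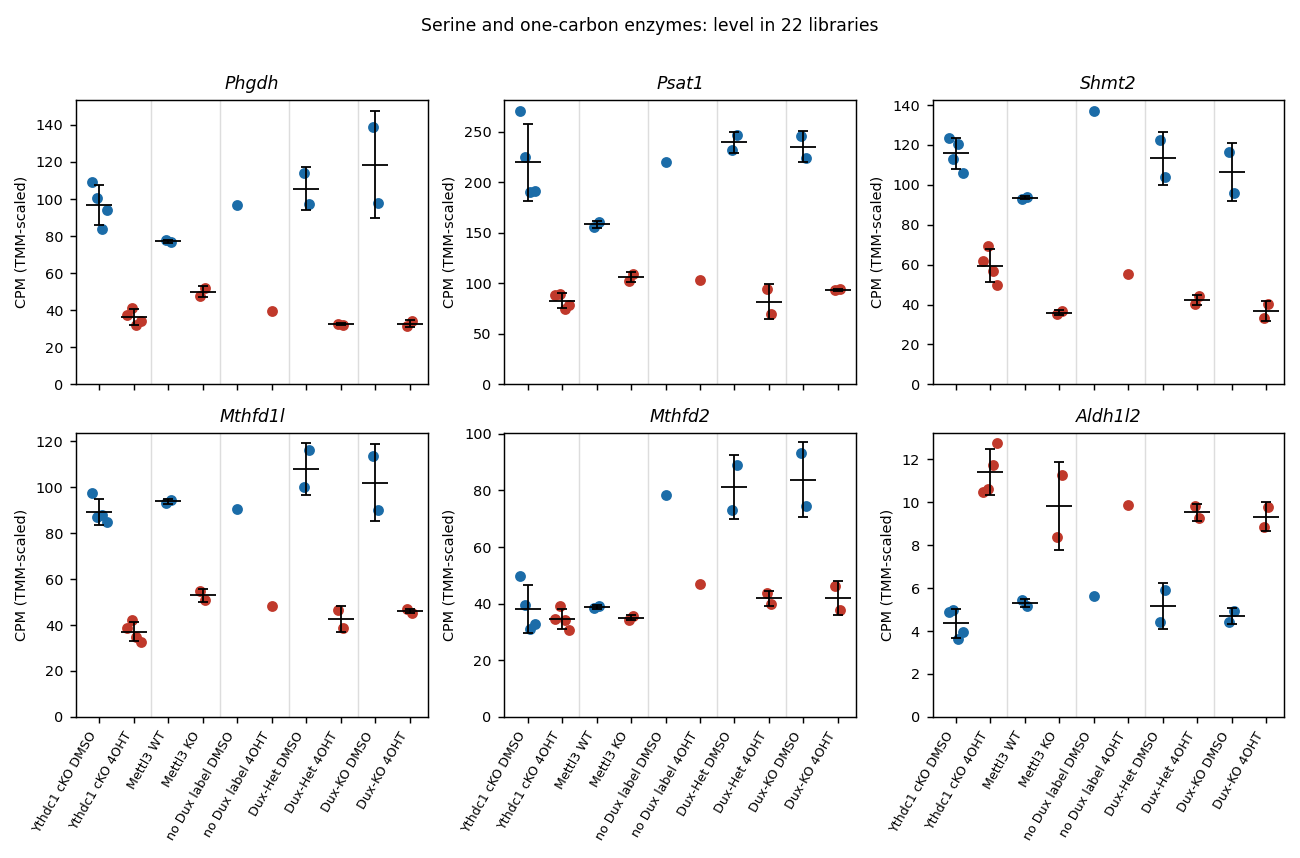
Level in TMM-scaled CPM of the serine enzymes Phgdh and Psat1 and the one-carbon enzymes Shmt2, Mthfd1l, Mthfd2 and Aldh1l2 in each of 22 libraries; blue points are DMSO or WT, red points 4OHT or KO, and black marks the mean ± SD of groups with more than 1 library. Phgdh, Psat1, Shmt2 and Mthfd1l are lower and Aldh1l2 is higher in every 4OHT or KO library than in the controls of its own set, whereas Mthfd2 separates in the Dux set and overlaps in the Ythdc1 set.

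Of the 5 transporters, 2 fell and none rose. Slc7a1, which imports arginine and lysine, ran from 53.6 to 78.9 CPM under DMSO and from 37.9 to 47.9 CPM under 4OHT with no overlap (log2 fold change -0.50 ± 0.10, adjusted p = 0.000738). Slc7a3, a related cationic amino acid carrier, ran from 33.5 to 53.7 and from 29.3 to 35.2 CPM and passed with an overlap (log2 fold change -0.34 ± 0.11, adjusted p = 0.0244), a call lost without DMSO replicate 1 or 4OHT replicate 1. Slc7a5 (165 to 243 against 183 to 205 CPM), its heavy chain partner Slc3a2 (131 to 159.5 against 146 to 154 CPM) and Slc7a11 (1.16 to 2.84 against 1.18 to 1.94 CPM) overlapped and did not pass. For Slc7a5 the 95% interval of the log2 fold change was -0.15 to 0.20.

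The tRNA synthetases, which load amino acids onto tRNAs, fell by smaller steps. Gars was at 369, 354, 312 and 298 CPM under DMSO and at 226, 248, 221 and 219 CPM under 4OHT, with no overlap (log2 fold change -0.52 ± 0.07, adjusted p = 1.02e-05). Sars, the seryl-tRNA synthetase, ran from 74.4 to 94.6 and from 49.0 to 59.2 CPM (log2 fold change -0.55 ± 0.08). Aars (alanyl) and Nars (asparaginyl) fell by 0.34 and 0.36 on the log2 scale, both without overlap. Aars shares 1326 exon bases with Exosc6 on the same strand, which was at 9.68 to 14.3 CPM against 328 to 528 CPM for Aars and did not pass. Wars (tryptophanyl) ran from 42.3 to 54.4 and from 39.9 to 47.2 CPM and did not pass (adjusted p = 0.206). Cars, the cysteinyl-tRNA synthetase, went the other way, at 69.3, 68.0, 66.0 and 61.0 CPM under DMSO and 88.7, 83.4, 77.5 and 72.6 CPM under 4OHT (log2 fold change 0.31 ± 0.07, adjusted p = 0.00172).

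The same treatment was compared in the Dux set, whose libraries are separate from those above. With Dux-Het, Dux-KO and unlabelled cells pooled (5 against 5 libraries, with the Dux label in the model), 23 of 32 genes changed, 5 higher and 18 lower, against 36.4% of 29322 entries called (20.2% higher, 16.2% lower). The median log2 fold change was -0.43 for the 32 genes and 0.05 for all entries. 14 genes fell in both sets, which is 14 of 16 in the Ythdc1 set and 14 of 18 here. 5 rose in both (Atf3, Ddit3, Chac1, Ppp1r15a and Aldh1l2), which is 5 of 9 and 5 of 5, and none had opposite calls. Within Dux-Het cells 16 genes changed, 1 higher and 15 lower (9.34% of entries called, 4.99% higher and 4.34% lower), and within Dux-KO cells 15 changed, 1 higher and 14 lower (9.86%, 5.5% higher and 4.36% lower). 14 genes were lower in both, and Aldh1l2 was the gene that was higher in both. The shares of all entries called alike in both sets, or in both genotypes, were not computed. Without a single library the count fell to between 8 and 12 in Dux-Het cells and to between 4 and 15 in Dux-KO cells. It was 9 without Dux-Het 4OHT replicate 1 and 8 without replicate 2, and it was 7 without Dux-KO DMSO replicate 1, 5 without Dux-KO 4OHT replicate 1 and 4 without replicate 2. Phgdh, Psat1 and Shmt2 kept their call in all of these.

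In each genotype 5 of 6 synthesis enzymes and 3 of 4 one-carbon enzymes fell. Phgdh was at 114 and 97.5 CPM under DMSO and 32.8 and 32.1 CPM under 4OHT in Dux-Het cells (log2 fold change -1.68 ± 0.18, adjusted p = 0.000432). In Dux-KO cells it was at 139 and 98.1 CPM under DMSO and 31.4 and 34.0 CPM under 4OHT (log2 fold change -1.82 ± 0.18, adjusted p = 0.000273). The 4 libraries under 4OHT thus lay close together whatever the Dux label. Psat1 fell from 232 and 247 to 94.2 and 69.6 CPM in Dux-Het cells, and from 246 and 224 to 93.0 and 93.9 CPM in Dux-KO cells. Shmt2 fell from 123 and 104 to 40.4 and 44.1 CPM in Dux-Het cells, and from 117 and 96.0 to 33.0 and 40.2 CPM in Dux-KO cells. Asns fell from 220.3 and 205 to 119.6 and 121 CPM, and from 213 and 216 to 117 and 116 CPM. Its replicates nearly coincided within each group.

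Mthfd1l fell in both genotypes (log2 fold change -1.33 ± 0.17 and -1.10 ± 0.17). Mthfd2, which had not passed in the Ythdc1 set, was at 73.1 and 89.2 CPM under DMSO and 43.8 and 40.0 CPM under 4OHT in Dux-Het cells, and at 93.1 and 74.4 against 46.1 and 37.6 CPM in Dux-KO cells. Both differences passed (log2 fold change -0.94 ± 0.18 and -0.96 ± 0.18). Aldh1l2 rose from 4.43 and 5.93 to 9.81 and 9.25 CPM in Dux-Het cells and from 4.42 and 4.95 to 8.87 and 9.80 CPM in Dux-KO cells (log2 fold change 0.90 ± 0.21 and 1.03 ± 0.22). Its antisense neighbour D10Wsu102e was also higher in Dux-KO cells (log2 fold change 0.50 ± 0.14, adjusted p = 0.045). Psph and Aldh18a1 fell in both genotypes, and Pycr1 passed in neither (log2 fold change -0.18 and -0.02).

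Of the transporters, Slc7a1 fell from 68.7 and 68.2 to 28.6 and 34.4 CPM in Dux-Het cells and from 73.8 and 58.9 to 29.3 and 30.3 CPM in Dux-KO cells. The fall was of about the same size in both (log2 fold change -1.10 and -1.11). Slc7a5 fell in both (log2 fold change -0.62 in each), and Slc7a3 passed in Dux-Het cells alone (-1.03 against -0.23), a difference between genotypes that did not pass. Aars, Gars, Nars and Sars fell in both genotypes by 0.50 to 0.89 on the log2 scale, with Sars showing the largest fold in each. Wars passed in the pooled comparison (-0.33 ± 0.08), and Cars passed in none of the 3.

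The stress regulators and effectors gave fewer calls in the Dux set, where a smaller share of all entries was also called. None of the 11 transcription factors and effectors passed within Dux-Het or within Dux-KO cells, where 9.34% and 9.86% of all entries were called. With 11 genes, no call is near these shares and does not set the regulators and effectors apart. Ddit3 was at 7.18 and 5.61 CPM under DMSO and 11.8 and 9.20 CPM under 4OHT in Dux-Het cells, and at 6.04 and 8.13 against 9.05 and 8.30 CPM in Dux-KO cells. The 4OHT libraries were above the controls in both, by log2 fold changes of 0.74 ± 0.23 and 0.33 ± 0.23. Chac1 was at 5.12 and 5.40 against 8.15 and 5.74 CPM in Dux-Het cells, and at 5.53 and 3.35 against 7.83 and 7.99 CPM in Dux-KO cells. In the pooled comparison Atf3, Ddit3, Chac1 and Ppp1r15a rose by 0.47 to 0.75 on the log2 scale, and Cebpg and Eif4ebp1 fell (-0.40 ± 0.09 and -0.44 ± 0.07). The call of Atf3 was lost in 7 of the 10 fits that each left out 1 library, and that of Ddit3 in 3 of them. Atf4 did not pass there (log2 fold change 0.16, adjusted p = 0.131), and its level ran from 68.0 to 92.5 CPM over the 10 libraries.

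Between Dux-KO and Dux-Het cells, 0 of 32 members passed for a difference in the effect of 4OHT, but so did 0% of 29322 entries. The 9 two-cell-like markers, with a median difference of -3.68 on the log2 scale, gave no call either, so this count does not show that members behaved alike. Under DMSO 0 of 32 members passed (0.0341% of entries), and under 4OHT 0 of 32 (0.276%, with 0.00341% higher and 0.273% lower). In edgeR the difference in the effect had 1 member at an unadjusted p below 0.05, and DESeq2 called 0 members. The two-cell-like markers summed to 44.3 to 55.7 CPM under 4OHT in Dux-Het cells and to 1.5 to 1.83 CPM in Dux-KO cells. For Phgdh, the Dux-KO effect minus the Dux-Het effect was -0.13 on the log2 scale (95% interval -0.63 to 0.36).

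The pair with no Dux label has 1 library for each treatment and no test. 23 of the 32 genes were lower and 9 higher under 4OHT, with a median log2 ratio of -0.48 (pseudocount of 0.5 CPM) against 0.01 for 24996 entries with over 20 counts. 3 genes were lower by at least 2-fold (1.48% of entries), and these were Shmt2, Phgdh and Psat1. Shmt2 stood at 137 CPM under DMSO (95% exact Poisson interval 133 to 141, counting error only) and at 55.4 CPM (53.2 to 57.6) under 4OHT. Chac1 and Atf3 were the genes with the largest positive log2 ratios beside Aldh1l2, at 0.82, 0.76 and 0.76.

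**Figure D4:**
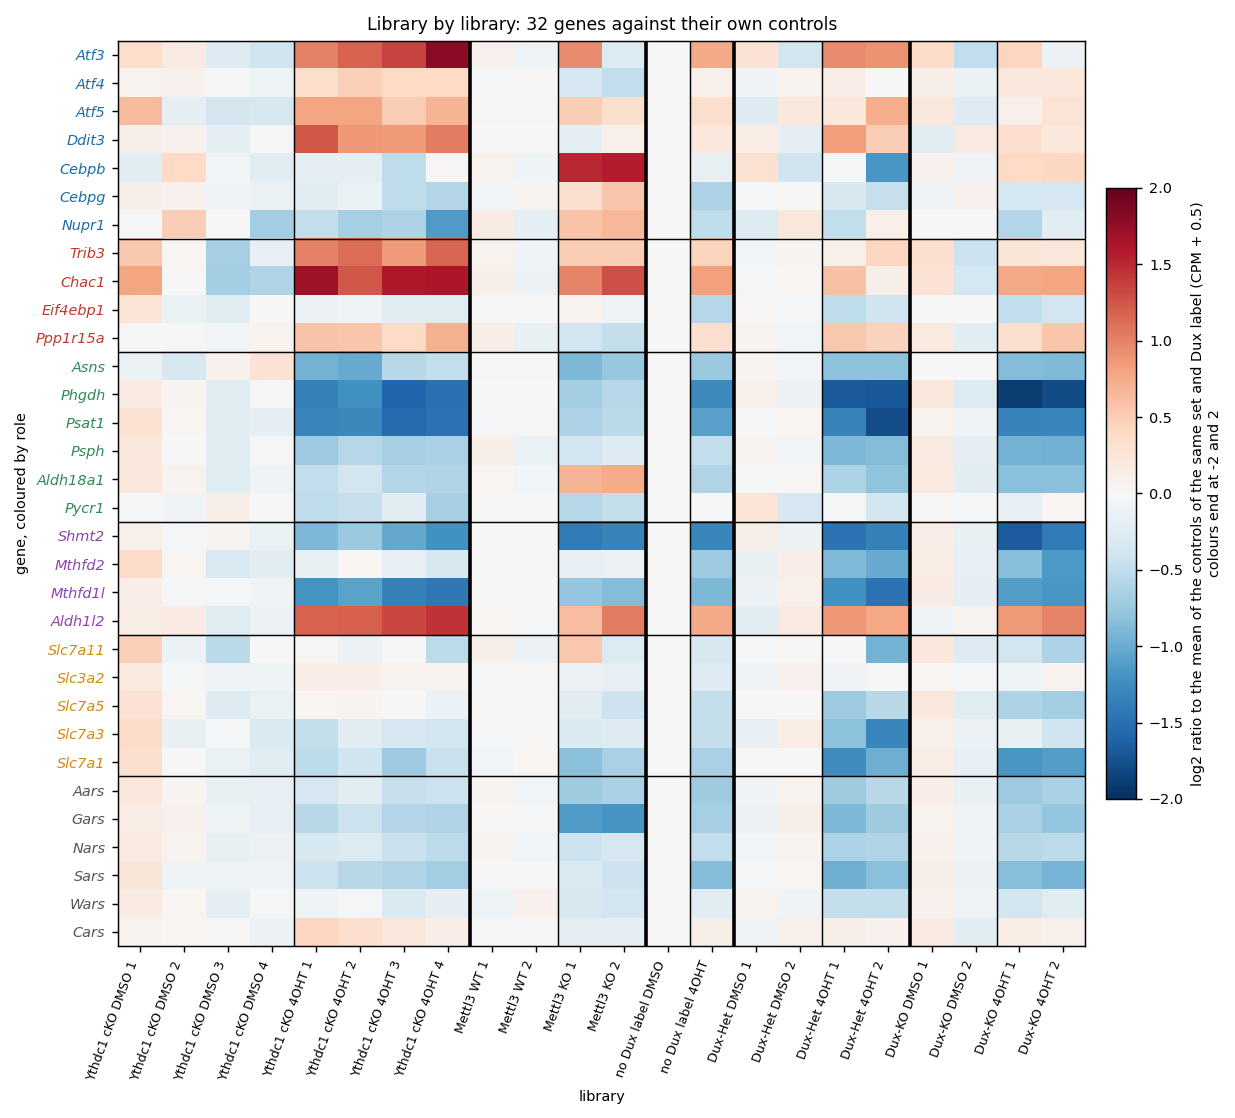
Log2 ratio of each library to the mean of the controls (DMSO or WT) of its own set and, in the Dux set, of its own Dux label (CPM plus 0.5), for 32 genes (rows, coloured by role) and 22 libraries (columns; thick lines part the sets); red is higher and blue lower than the controls. Phgdh, Psat1, Shmt2, Mthfd1l and Slc7a1 are blue in every 4OHT and KO library, and Chac1 and Aldh1l2 are red in every one.

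In the Mettl3 set, 18 of the 32 genes changed in libraries labelled KO against WT, 5 higher and 13 lower, against 31.2% of 23977 entries called (16.4% higher, 14.9% lower). The median log2 fold change was -0.28 for the 32 genes and 0.02 for all entries. With 2 against 2 libraries the count rests on single libraries: it was 2 without WT replicate 1 (Shmt2 and Gars), 6 without WT replicate 2, 22 without KO replicate 1 and 25 without KO replicate 2.

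11 genes fell both here and under 4OHT in the Ythdc1 set, which is 11 of 13 here and 11 of 16 there. Shmt2 was at 93.0 and 94.1 CPM in the libraries labelled WT and at 35.1 and 36.9 CPM in those labelled KO, the largest fall of the 32 genes here (log2 fold change -1.36 ± 0.09, adjusted p = 2.37e-05). Gars was at 275 and 268 against 123 and 119.9 CPM (-1.15 ± 0.08, adjusted p = 2.2e-05). Asns was at 212 and 208 against 112 and 124 CPM (-0.81 ± 0.08). Each of these kept a narrow spread within its group. Mthfd1l, Phgdh, Psat1 and Pycr1 fell by 0.52 to 0.81 on the log2 scale, and Psph (-0.31) and Mthfd2 (-0.13) did not pass. Slc7a1 and Slc7a5 fell (-0.74 ± 0.12 and -0.30 ± 0.10), as did Aars, Nars and Sars (-0.66, -0.37 and -0.34). 10 genes were lower in each of the Ythdc1 set, the Mettl3 set, Dux-Het and Dux-KO cells: Asns, Phgdh, Psat1, Shmt2, Mthfd1l, Slc7a1, Aars, Gars, Nars and Sars. The share of all entries that fell in both the Ythdc1 and Mettl3 sets, or in each of these comparisons, was not computed. These shared counts therefore have no background to be read against.

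5 genes rose here: Cebpb, Cebpg, Aldh18a1, Chac1 and Aldh1l2, of which Chac1 and Aldh1l2 also rose in the Ythdc1 set. Cebpb was at 0.541 and 0.434 CPM in WT, which is 14 and 13 counts, and at 2.32 and 2.45 CPM in KO, 66 and 70 counts (log2 fold change 2.30 ± 0.36, adjusted p = 0.00139). It was the largest rise of the 32 genes in this set. Cebpb shares 312 exon bases with Tmem189 on the opposite strand, which did not pass (log2 fold change 0.10, adjusted p = 0.56). Cebpg was at 17.3 and 18.8 against 22.6 and 26.7 CPM and rose (0.46 ± 0.13). Aldh18a1, the first proline enzyme, was at 38.0 and 35.6 against 59.2 and 62.0 CPM and rose as well (0.73 ± 0.10, adjusted p = 0.000586). Chac1 was at 2.4 and 1.97 against 4.84 and 6.08 CPM (1.34 ± 0.24), and Aldh1l2 at 5.45 and 5.18 against 8.38 and 11.3 CPM (0.90 ± 0.20). D10Wsu102e, the neighbour of Aldh1l2, was also higher (0.38 ± 0.07, adjusted p = 0.00426). Atf4 was at 90.9 and 93.3 CPM in WT and at 72.5 and 65.3 CPM in KO, a fall of the size by which it had risen under 4OHT (-0.40 ± 0.09, adjusted p = 0.00947). Ddit3 lay at 6.38 and 6.52 against 5.65 and 6.99 CPM and did not pass (-0.01, adjusted p = 0.967), nor did Atf3, Atf5, Nupr1, Trib3 (0.57, adjusted p = 0.0623), Ppp1r15a (-0.42, adjusted p = 0.0548) or Eif4ebp1.

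The 2 effects were then compared in 1 fit of 12 libraries. 14 of the 32 genes differed between the Ythdc1 effect and the Mettl3 effect, 7 in each direction, against 25.3% of 28260 entries (13.7% higher, 11.6% lower). The effect on Ddit3, Ppp1r15a and Atf4 was higher for Ythdc1, by 1.15 ± 0.23, 1.06 ± 0.15 and 0.88 ± 0.10 on the log2 scale. It was lower for Ythdc1 in Cebpb (-2.53 ± 0.50), Nupr1 (-1.62 ± 0.47), Aldh18a1 (-1.18 ± 0.15) and Cebpg (-0.75 ± 0.20). Atf4, Cebpg and Aldh18a1 were called in opposite directions in the 2 sets. Phgdh (-0.74 ± 0.15), Psat1 (-0.78 ± 0.16) and Mthfd1l (-0.39 ± 0.13) fell further in the Ythdc1 set, and Shmt2 (0.47 ± 0.14), Gars (0.66 ± 0.11) and, near the threshold, Aars (0.37 ± 0.13, adjusted p = 0.0462) fell further in the Mettl3 set. Cars, at 0.53 ± 0.12, was the remaining gene that differed. The differences in Nupr1, Shmt2 and Mthfd1l were each lost in at least 1 fit without a single library. That in Aars was lost in 9 of 12 such fits and in 5 of 7 other alternatives, DESeq2 included. For Asns, Pycr1 and Nars the differences did not pass and were 0.14 ± 0.20, 0.12 ± 0.16 and 0.05 ± 0.13.

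**Figure D5:**
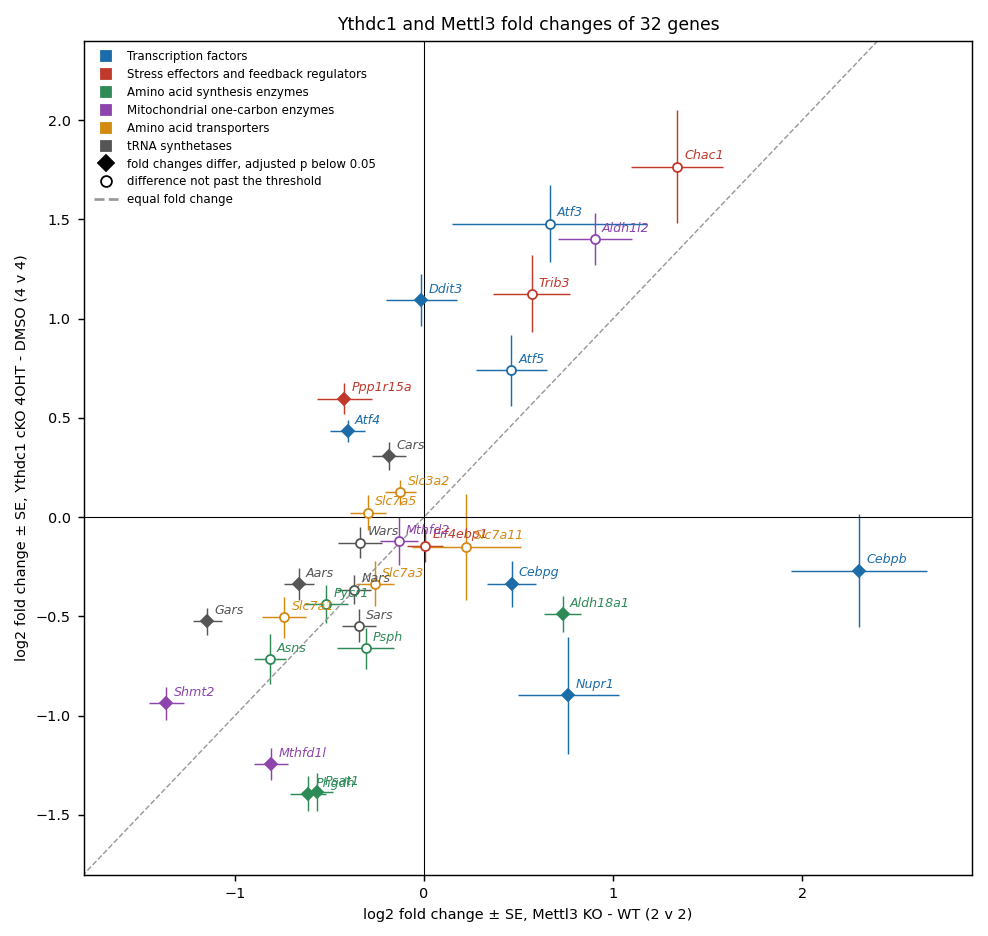
Log2 fold change ± SE of the 32 genes for 4OHT against DMSO in the Ythdc1 set (vertical axis, 4 against 4 libraries) and labelled Mettl3 KO against WT (horizontal axis, 2 against 2), coloured by role; diamonds mark genes whose fold changes differed at an adjusted p of 0.05 and the dashed line marks equal fold changes. Ddit3, Ppp1r15a and Atf4 lie above the line, Cebpb, Nupr1, Aldh18a1 and Cebpg far below it, and Asns, Pycr1 and Nars close to it.

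Between the Ythdc1 set and the pooled Dux set, the effect of 4OHT differed in 2 genes, both higher in the Ythdc1 set, against 2.1% of 31020 entries (1.27% higher, 0.832% lower). These were Mthfd2 (0.80 ± 0.17, adjusted p = 0.013) and Slc7a5 (0.63 ± 0.14, adjusted p = 0.0159), in which the Dux set fell and the Ythdc1 set did not pass. With a replicate block by library number, 6 genes differed. None differed without DMSO replicate 3 of the Ythdc1 set, and 1 differed without DMSO replicate 1 of the Dux-KO cells. The DMSO libraries of the Ythdc1 set held less Mthfd2 than those of the Dux set, at 30.9 to 49.7 against 73.1 to 93.1 CPM, whereas under 4OHT the ranges were 30.7 to 39.3 and 37.6 to 47.0 CPM.

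Counts for the wider pathways are read against the share of all entries called in either direction, 45.1% in the Ythdc1 set, 36.4% in the pooled Dux set and 31.2% in the Mettl3 set. Of 14 other cytosolic tRNA synthetases, 12 fell and 0 rose in the Ythdc1 set, with Vars (log2 fold change -0.86) and Kars (-0.57) the furthest. In the pooled Dux set 14 of 14 fell, with Vars at -1.34, and in the Mettl3 set 10 of 14 fell, with Kars at -1.34. Their median log2 fold changes were -0.35, -0.52 and -0.50. Of 17 mitochondrial synthetases, 3 were higher and 4 lower in the Ythdc1 set, 2 and 4 in the pooled Dux set, and 1 and 3 in the Mettl3 set, at or below those shares.

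Of 15 genes for the eIF2 kinases, eIF2 and its exchange factor, 2 rose and 8 fell in the Ythdc1 set. Eif2ak3 (PERK), the kinase that responds to unfolded protein, rose (0.40 ± 0.07), and Eif2ak4 (GCN2), the kinase that responds to uncharged tRNA, fell (-0.91 ± 0.08). Both moved the same way in the pooled Dux set (0.33 ± 0.09 and -0.61 ± 0.09), whereas in the Mettl3 set Eif2ak3 fell (-0.60 ± 0.12) and Eif2ak4 did not pass. Of 18 genes of the ATF6 and XBP1 arms of the unfolded protein response, 3 rose and 8 fell in the Ythdc1 set, 2 and 7 in the pooled Dux set and 3 and 6 in the Mettl3 set. Hsp90b1, the chaperone GRP94, fell in all 3 (-0.60, -0.64 and -0.52).

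Other reported targets of ATF4 or CHOP also moved in both directions. In the Ythdc1 set 8 of 17 tested rose and 4 fell, with Sesn2, an inhibitor of mTORC1 signalling, at 1.28 ± 0.11 and Pck2, mitochondrial PEP carboxykinase, at -1.31 ± 0.16. In the pooled Dux set 6 of 18 rose and 7 fell, with the stress hormone Gdf15 at 1.17 ± 0.20 and Pck2 at -1.37 ± 0.14. Sesn2, Gdf15, Gadd45a, Pmaip1 and Tnfrsf10b in that list are also known p53 targets. In the Mettl3 set 5 rose and 3 fell, with Cth, which makes cysteine, at 1.57 ± 0.11.

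Of 18 other folate, glycine and methionine genes, 3 rose and 9 fell in the Ythdc1 set, 2 and 9 in the pooled Dux set and 2 and 6 in the Mettl3 set. Gcat, of threonine breakdown to glycine, fell in the first 2 of these (-1.01 and -1.02). Among 13 other amino acid enzymes 5 rose and 4 fell in the Ythdc1 set. Arg2, the mitochondrial arginase, rose in the Ythdc1 set (2.10 ± 0.31), the pooled Dux set (1.88 ± 0.33) and the Mettl3 set (3.92 ± 0.91). Among 13 other amino acid transporters 5 rose and 2 fell in the Ythdc1 set. Slc7a7 rose (1.73 ± 0.10), and Slc7a6, another partner of Slc3a2, fell there, in the pooled Dux set and in the Mettl3 set (-1.02, -0.67 and -0.66).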

How the data were processed

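Libraries were made from ESC RNA after ribosomal RNA had been digested, per the labels' protocols. Tools listed in the submitters' processing notes are STAR 2.7, RSEM, Bowtie2 and bcl2fastq, with mm10 as the build. How reads were counted, with which annotation and with or without strand, was not stated in the sources available for this work. The authors deposited raw counts, as whole numbers, for 44749 entries: 43672 carry a GENCODE vM21 symbol and 1077 name repeat families. A second deposited table holds normalized signal. Its values equal the counts divided by 1 factor per library (largest relative deviation 5.55e-15 over 34971 complete lines), and those factors served only as an alternative scaling.

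The 32 members and the other gene lists were chosen with earlier results of these data known, so no list gets a test of its own. The main test was edgeR 4.0.16's quasi-likelihood test (R 4.3.3), with a filter on low counts by group (filterByExpr, smallest count 10), TMM scaling, Benjamini-Hochberg adjustment over all tested entries and a threshold of 0.05. A standard error (SE) was taken as the size of the log2 fold change divided by the root of F. The 95% intervals of log2 fold changes are ± 1.96 SE. This normal multiplier makes them too narrow where libraries are few. The Ythdc1 set (8 libraries), Mettl3 set (4) and Dux set (10, as 6 group means, or as treatment plus Dux label) were fitted apart, and differences between sets in fits of 12 and 18 libraries. The procedure was tested on simulated data. All members are named, and of each other list at most the 2 called genes with the largest rise and fall per comparison, followed across comparisons. In the Dux set, genotype and treatment fields disagree with the titles by an offset of 1 sample. The titles match the table's columns and were used.

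In the Ythdc1 set, libraries that share a number across treatments also shared deviations from their group means. The correlations were 0.33, 0.13, 0.36 and 0.35, over 10172 entries. The same correlation was 0.55 in Dux-Het cells, 0.25 in Dux-KO cells and 0.08 in the Mettl3 set, with 2 libraries per group. On this evidence the numbers were taken as pairs in the replicate block alone, and the main tests were unpaired. In the Dux set the block joined a number across all Dux labels, so it was not a pairing within genotype. What the numbers stand for is not known here. Alternatives were DESeq2 1.42.0, other scalings, no filter, gene entries alone, a replicate block and leaving out each library. A filter with a smallest group of 2 libraries was added after seeing the data. Exon positions are from GENCODE vM21. Intervals on counts cover counting error only. A promoter stretch of 1 member and 1 gene of the other lists are not reported here.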

Additional observations from a re-analysis of the deposited data

Results flagged for a closer look

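In the DMSO group of the Ythdc1 set, 2 members had 1 library far from the other 3, in both cases replicate 1. Atf5 stood at 18.8 CPM there against 9.10 to 10.3 CPM in the other 3 libraries, and Sars at 94.6 CPM against 74.4 to 75.2 CPM. Chance gives about 1 such group in 20, and 64 groups were looked at. Without this library Atf5 and Sars kept their calls.

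The effect of 4OHT differed between the Ythdc1 set and the pooled Dux set in 2 members by a test of the difference: Mthfd2 by 0.80 and Slc7a5 by 0.63 on the log2 scale. Both calls were lost without DMSO replicate 3 of the Ythdc1 set, and that of Slc7a5 also without DMSO replicate 1 of the Dux-KO cells.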

How the results depend on the processing

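Counts of called members in the Ythdc1 set (25), the pooled Dux set (23) and the difference between the Ythdc1 and Mettl3 effects (14) stayed within 1.5 times of these values under every alternative run: 23 to 26, 21 to 26 and 10 to 18. With a replicate block they were 26, 25 and 16, and they were 19 in the Mettl3 set, 18 in Dux-Het and 16 in Dux-KO cells, where the numbers are only shared. In the Ythdc1 set the block added Slc3a2 and lost no call. Leaving out 1 library at a time gave 2 to 25 members in the Mettl3 set (18 with all libraries), 8 to 12 in Dux-Het cells (16), 4 to 15 in Dux-KO cells (15) and 0 to 6 for the Ythdc1 set against the pooled Dux set (2). In these fits a lone library is assumed to vary like the other groups. That last difference held 7 members with DESeq2, 6 without the filter on low counts and 6 with the replicate block; fewer samples apart, the cause was not tested. Of single genes in single comparisons, 31 gained and 48 lost their call under at least 1 alternative, and none reversed. At 24.96 M counts per library or more, the least abundant members had 13 to 14 counts in a library, so small changes in Cebpb were not detectable.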
